A study of Mus musculus with 22 samples.

Results

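The 37 genes described here are the NFkB pathway with its cytokines and chemokines, picked by symbol from the 24421 genes counted in mouse bladder organoids. These genes were picked with earlier results of these data known, so shares of members called are descriptions only. Each had to be present in all 22 count tables, and all 37 were. By role they are 13 cytokines, 10 chemokines, 1 chemokine receptor, 5 Rel subunits, 3 IkB proteins and 5 other genes of the pathway.

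Organoids are epithelial cultures grown in a gel from dissociated tissue. The primary cultures were labelled ARID1A KO or ARID1A WT. ARID1A is a subunit of the BAF chromatin remodelling complex and is often mutated in bladder cancer. Total RNA was sequenced from 3 KO and 3 WT libraries, the polysome fraction of a sucrose gradient from 3 KO and 3 WT libraries, and the subpolysome fraction from 3 KO and 3 WT libraries. Polysomes are mRNAs loaded with several ribosomes, and the subpolysome fraction is the lighter part of the gradient. Another 4 total RNA libraries, 2 labelled ARID1A KO and 2 labelled ARID1A WT, are given as bladder cancer tissue in the tissue label and as isogenic cancer organoids of the bladder in the extraction protocol. The age, sex and strain of the mice, any treatment, the deleted stretch of Arid1a, and the number of clones or animals behind each group could not be read from the labels. Whether libraries of a group stem from separate animals or cultures is not labelled either, and p-values reflect a spread between libraries that may be technical.

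NFkB is a family of dimers of Rel subunits that IkB proteins hold inactive in the cytoplasm. Signals from Toll-like, interleukin-1 and tumour necrosis factor receptors activate the IKK kinases, IkB is degraded, and the freed dimers bind kappaB sites near genes of cytokines, chemokines and adhesion molecules. Several targets, among them Nfkbia and Tnfaip3, encode inhibitors that close the loop. In the bladder, urothelial cells release these factors on infection or injury and so call in neutrophils and monocytes. Many of the mRNAs carry AU-rich stretches near their 3′ end, which shorten their life.

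The libraries held 39245248 to 76594655 counts. Levels below are CPM (counts relative to the library's total) scaled by TMM factors, which bring all 22 libraries to a common scale, and tests are quasi-likelihood F tests of edgeR. Their p-values were adjusted by Benjamini-Hochberg across every gene tested, and a gene is called at an adjusted p below 0.05. Arid1a itself stood at 74.9, 74.8 and 83.8 CPM in KO and 114, 130.3 and 116 CPM in WT total RNA. Its mRNA was thus lower in every KO library of total RNA but not absent. In polysomes Arid1a ranged from 13.9 to 23.6 CPM in KO and from 21.6 to 34.6 CPM in WT. In subpolysomes it ranged from 62.4 to 75.3 CPM in KO and from 55.8 to 62.8 CPM in WT. The genotypes overlapped in both fractions, and Arid1a was called in neither. In the cancer set it stood at 175 and 56.7 CPM in the libraries labelled KO and 66.9 and 196 CPM in those labelled WT, so each label held 1 high and 1 low library, which goes against the labels. Of 17 urothelial markers, none was at 0 counts in any primary library, while Upk2, Upk3a and Upk3b were at 0 in all 4 cancer libraries, where Krt5 and Trp63 were abundant. Krt7 had 0 and 1 counts in the cancer libraries labelled KO and 12 and 13 in those labelled WT. Against primary total RNA, 13 of the 17 were called lower in cancer and 2 higher, where 39% and 38.8% of all genes were. Among 31 immune cell markers, 17 to 26 were at 0 counts in a given library. In bulk RNA, fewer cells of a type and less RNA per cell cannot be told apart. Strand handling is not given in the sources used here, and 13 members overlap another annotated gene; the counted partners reached at most 209 counts in a primary library, for Zmynd15 beside Cxcl16.

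Promoters of the members often held a kappaB match, and some are printed here to show the element through which NFkB is known to act at its target genes. RefSeq promoter entries (assembly GRCm38.p6) existed for 27 of the 37 members. The kappaB consensus, the motif of 10 bases bound by NFkB dimers, was searched on both strands in the 250 bases before each start. It occurred in 14 of the 27 members (51.9%), against 8.23% of 27025 genes with an entry. The lines below give the match in capitals, 5′ to 3′ on the gene's own strand.
Cxcl1, chr5:90891149-90891208, plus strand: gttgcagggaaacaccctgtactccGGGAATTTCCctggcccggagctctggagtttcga
Cxcl2, chr5:90903777-90903836, plus strand: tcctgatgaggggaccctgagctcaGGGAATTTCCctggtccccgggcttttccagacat
Cxcl3, chr5:90786003-90786062, plus strand: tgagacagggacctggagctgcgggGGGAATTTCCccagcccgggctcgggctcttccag
Nfkbia, chr12:55492648-55492701, minus strand: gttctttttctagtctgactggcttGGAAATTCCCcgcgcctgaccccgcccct
Lif, chr11:4257365-4257424, plus strand: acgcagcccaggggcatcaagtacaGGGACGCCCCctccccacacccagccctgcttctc
Csf1, chr3:107760589-107760648, minus strand: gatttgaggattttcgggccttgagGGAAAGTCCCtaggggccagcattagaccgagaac
Rel, chr11:23771027-23771086, minus strand: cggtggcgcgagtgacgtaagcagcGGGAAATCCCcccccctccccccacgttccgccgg
Ccl20, chr1:83116661-83116720, plus strand: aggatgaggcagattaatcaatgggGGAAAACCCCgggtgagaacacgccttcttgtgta

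The neutrophil chemokine genes Cxcl1, Cxcl2 and Cxcl3, neighbours on chromosome 5, shared the same matching letters. Among members called lower in KO total RNA, 5 of 10 with an entry used here held a match, among those called higher 2 of 6, and among the rest 7 of 11. A match is a description of letters and not of binding.

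The AU-rich nonamer TTATTTATT was searched in the last 300 bases of each 3′ untranslated region of the GENCODE annotation of the same build. It occurred in 8 of 33 members with a long enough region (24.2%), against 2.26% of 15406 genes. The sites shown belong to members whose KO or polysome values are described below, with the nonamer in capitals, which in Csf2 mark a run of overlapping nonamers.
Csf2, chr11:54247328-54247357, minus strand: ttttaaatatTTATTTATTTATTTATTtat
Lif, chr11:4272402-4272431, plus strand: cagattatttTTATTTATTcaatgtcatat
Il23a, chr10:128296183-128296212, minus strand: tagatgatggTTATTTATTctatttataag
Cxcl1, chr5:90892908-90892937, plus strand: agaatgtcagTTATTTATTgaaagtcgtct
Cxcl2, chr5:90905880-90905909, plus strand: gtggacacatTTATTTATTcatgtattttt
Nfkbia, chr12:55489607-55489636, minus strand: ggaccacgttTTATTTATTgtgcttttgat

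Levels between genes are compared per kilobase of exon. In KO total RNA the mean levels of the leading members were 305 CPM per kb for Tslp, an epithelial cytokine of type 2 immunity, 251 for the alarmin Il33 and 88.3 for Nfkbia. In WT total RNA the same genes averaged 379, 132 and 91.2 CPM per kb. Csf2, which encodes GM-CSF, averaged 4.71 CPM per kb in KO and 49.5 in WT. Il1b and Il6, classic products of activated macrophages, had at most 7 and 6 counts in any of the 18 primary libraries.

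In total RNA the KO organoids had less mRNA of 8 of 11 cytokines and 4 of 10 chemokines tested, with a few genes going the other way. GM-CSF, the monocyte chemokines Ccl2 and Ccl7, Il23a, Lif and Tnf were lower by between 2.63-fold and 10.7-fold. Against that direction, the monocyte chemokine receptor Ccr2, the chemokine Cxcl15, Il18 and Il33 were higher. Of 34 members tested, 7 were called higher and 17 lower, where 27% of 13198 genes tested were called higher and 26.3% lower. The share lower (17 of 34) is above that background and the share higher (7 of 34) below it. Since the members were chosen with earlier results of these data known, an excess may come from that choice. The median log2 fold change was -0.17 over the members and 0.0026 over all genes. Il1b, Il6 and Lcn2 did not pass the filter on low counts. Groups of libraries did not overlap for 5 members above and 19 below, against 28.3% and 33.3% of all genes.

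**Figure D1:**
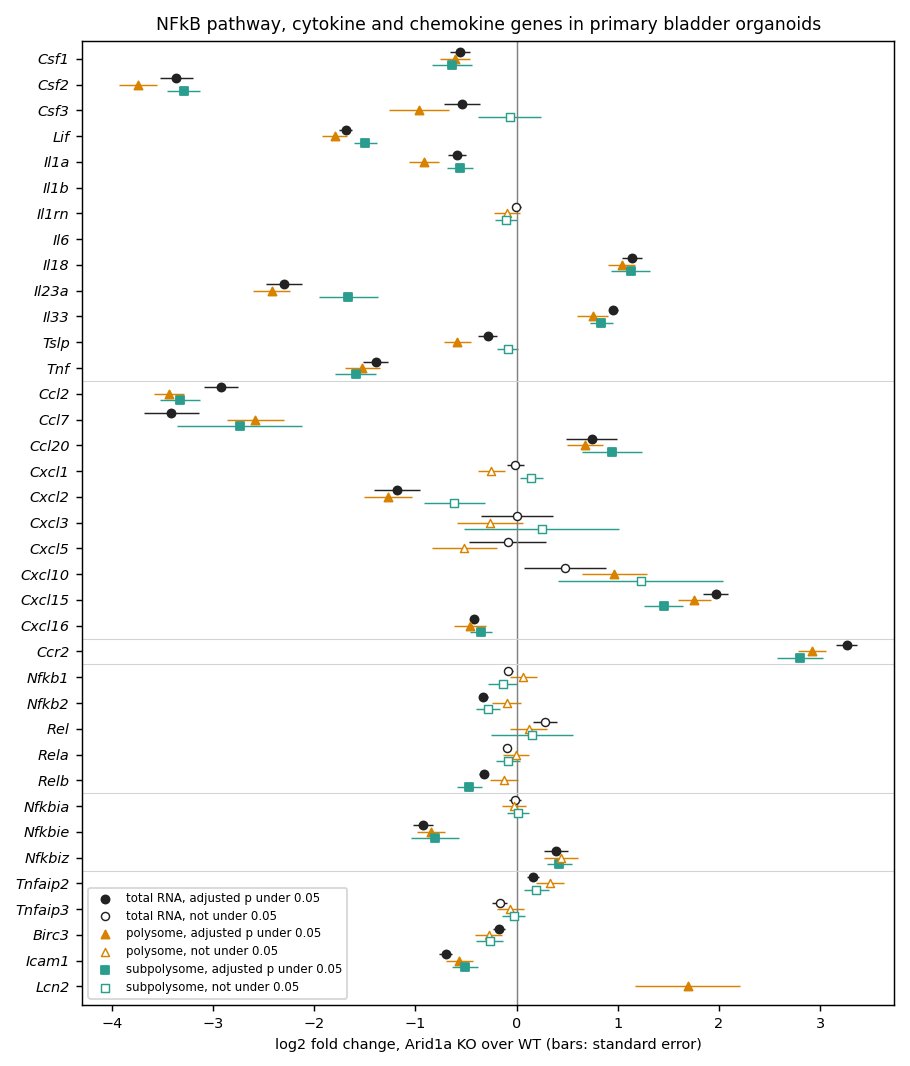
Log2 fold changes of the members, KO over WT, in total RNA, polysomes and subpolysomes, with bars of 1 standard error, filled points having an adjusted p under 0.05. Rows run by role from cytokines to other pathway genes. Csf2, Ccl2 and Ccl7 lie farthest below 0 and Ccr2 farthest above it in all 3 kinds of RNA, while Rel subunits and Nfkbia lie closer to 0.

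Among the cytokines, 8 of 11 tested were called lower and 2 higher. Csf2 had 3.12, 4.13 and 4.06 CPM in KO libraries, against 30.9, 38.9 and 48.9 CPM in WT libraries. Every KO library lay far below every WT library, 10.3-fold in the fit (log2 fold change -3.36, SE 0.16, adjusted p = 1.73e-08). Il23a, the p19 chain of interleukin-23, had 1.81, 2.47 and 1.71 CPM in KO and 7.76, 10.9 and 11.5 CPM in WT (log2 fold change -2.30, SE 0.18, adjusted p = 7.13e-07). Lif, an interleukin-6 family cytokine, had 48.7, 56.2 and 51.3 CPM in KO and 159, 169 and 185 CPM in WT (log2 fold change -1.69, SE 0.065, adjusted p = 3.79e-09). Neither gene's groups overlapped. Tnf, a main activator of the pathway, had 9.01, 10.4 and 12.1 CPM in KO and 25.2, 25.7 and 33.4 CPM in WT (log2 fold change -1.39, SE 0.12, adjusted p = 2.48e-06). Smaller decreases were called for the macrophage growth factor Csf1 (log2 -0.56, adjusted p = 0.00055) and for Il1a (log2 -0.59, adjusted p = 0.000153).

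Both cytokines called higher belong to the interleukin-1 family. Il18 had 16.01, 15.2 and 16.2 CPM in KO and 8.19, 6.22 and 7.43 CPM in WT (log2 fold change 1.14, SE 0.10, adjusted p = 2.36e-06). Il33 had 734, 729.6 and 707 CPM in KO and 361, 402 and 377 CPM in WT (log2 fold change 0.96, SE 0.043, adjusted p = 1.18e-08). All KO libraries exceeded all WT libraries for both genes. Il1rn, the interleukin-1 receptor antagonist of the same family, stood at 93.5, 96.2 and 97.1 CPM in KO and 91.96, 99.5 and 102 CPM in WT, with an adjusted p of 0.977. Calls of lower that depended on single libraries were those of Csf3, the granulocyte growth factor, and Tslp. The adjusted p of Csf3 was 0.0252 with all libraries, 0.0584 without KO library 1, 0.0989 without KO library 3 and 0.0751 without WT library 3. That of Tslp was 0.0241 with all libraries, 0.0619 without KO library 1, 0.0616 without KO library 3, 0.0869 without WT library 1 and 0.0693 without WT library 3, and 0.0689 by DESeq2.

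**Figure D2:**
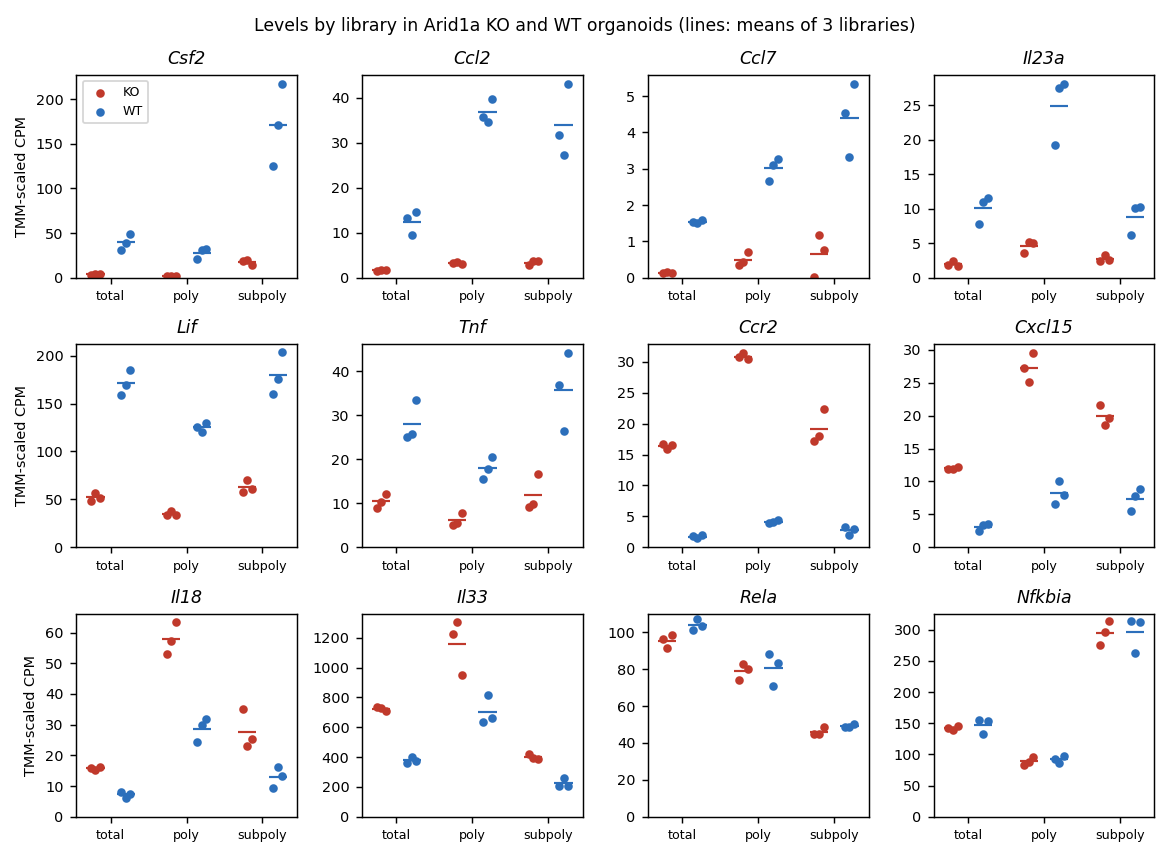
Level of 12 members in each of the 18 primary libraries (TMM-scaled CPM, linear axes from 0), by kind of RNA with KO left of WT, 1 point per library and a line at the mean of 3. KO points of Csf2, Ccl2, Ccl7, Il23a, Lif and Tnf lie below all WT points of the same kind of RNA and those of Ccr2, Cxcl15, Il18 and Il33 above, whereas Rela and Nfkbia differ more between kinds of RNA than between genotypes.

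Of 10 chemokines, 4 were called lower and 2 higher. The CCR2 ligands among the members fell: Ccl2 had 1.43, 1.72 and 1.69 CPM in KO and 13.4, 9.54 and 14.5 CPM in WT (log2 fold change -2.92, SE 0.16, adjusted p = 6.39e-08), and its neighbour on chromosome 11, Ccl7, had 0.1196, 0.166 and 0.138 CPM in KO and 1.54, 1.498 and 1.599 CPM in WT (log2 fold change -3.41, SE 0.27, adjusted p = 9.99e-07). Neither overlapped between groups. The neutrophil chemokines differed in their calls. Cxcl2 had 1.32, 1.27 and 1.497 CPM in KO and 3.28, 2.12 and 4.05 CPM in WT (log2 fold change -1.18, SE 0.22, adjusted p = 0.000886), whereas Cxcl1 stood at 44.4, 42.4 and 41.4 CPM in KO and 42.1, 38.98 and 50.9 CPM in WT (log2 -0.013, SE 0.084, not called). Cxcl3 and Cxcl5 were not called, at adjusted p = 0.997 and 0.86. Cxcl2 and Cxcl3 share 126 words of 50 bases in their transcripts, so reads between them may be split uncertainly. Cxcl15, another chemokine of the same cluster on chromosome 5, went the other way with 11.9, 11.8 and 12.2 CPM in KO and 2.45, 3.42 and 3.51 CPM in WT (log2 fold change 1.97, SE 0.12, adjusted p = 1.54e-07). Cxcl16, a membrane-bound chemokine, was lower (log2 -0.42, adjusted p = 2.69e-06). Ccl20, which attracts CCR6-bearing cells, had 5.72, 4.55 and 5.82 CPM in KO and 4.98, 2.14 and 2.64 CPM in WT, with 1 WT library inside the KO range. Its call (log2 fold change 0.74, SE 0.25, adjusted p = 0.0284) had an adjusted p of 0.0784 without KO library 1, 0.085 without KO library 3, 0.0959 without WT library 2 and 0.0945 without WT library 3, and of 0.0967 by DESeq2.

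Ccr2, the receptor of Ccl2 and Ccl7, had 16.7, 15.9 and 16.6 CPM in KO libraries and 1.78, 1.498 and 1.93 CPM in WT libraries (log2 fold change 3.27, SE 0.11, adjusted p = 1.29e-09). Of the members tested it had the largest increase, 9.61-fold, while its ligands among the members, Ccl2 and Ccl7, fell. Ccr2 is best known from monocytes, so immune cell markers are given beside it. Ptprc (CD45), the pan-leukocyte marker, had 0 counts in all 6 total RNA libraries, as had Lyz2 and Tyrobp. Cd68 had 19.6, 18.1 and 17.5 CPM in KO and 9.02, 9.38 and 7.77 CPM in WT (log2 fold change 1.11, SE 0.086, adjusted p = 8.31e-07), and Cd14 was higher as well (log2 0.28, adjusted p = 0.0093). These were the only 2 called of 6 immune markers tested. The summed level of the 31 markers was 87.7 to 91.7 CPM in KO and 64.1 to 74.0 CPM in WT total RNA.

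Of the 5 Rel subunits, 2 were called lower and none higher. Nfkb2 (log2 -0.33, adjusted p = 7.24e-05) and Relb (log2 -0.32, adjusted p = 7.89e-05), the pair of the non-canonical pathway, were called lower. Rela had 96.2, 91.4 and 98.6 CPM in KO and 101, 107 and 104 CPM in WT, without overlap, but missed the threshold at adjusted p = 0.0784, as did Nfkb1 at 0.132. Rel missed it at 0.0722 and was called higher without WT library 1 (adjusted p = 0.00578).

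Of the 3 IkB genes, 1 was called higher and 1 lower. Nfkbia, the main inhibitor and a fast NFkB target, stood at 142, 139.8 and 145 CPM in KO and 155, 132 and 153 CPM in WT (log2 -0.018, SE 0.061, not called). Nfkbie had 9.901, 10.04 and 9.99 CPM in KO and 16.2, 22.2 and 19.7 CPM in WT (log2 fold change -0.93, SE 0.10, adjusted p = 1.12e-05). Nfkbiz (IkB zeta), an atypical nuclear IkB that works with NFkB at secondary target genes, was higher with 19.5, 22.05 and 22.2 CPM in KO and 17.1, 13.2 and 19.3 CPM in WT (log2 fold change 0.39, SE 0.12, adjusted p = 0.0159). Without KO library 3 the adjusted p of Nfkbiz was 0.0545.

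Of the other pathway genes, the adhesion molecule Icam1 was lower with 39.9, 41.7 and 48.3 CPM in KO and 73.5, 72.2 and 69.97 CPM in WT (log2 fold change -0.70, SE 0.066, adjusted p = 3.83e-06). Birc3, an inhibitor of apoptosis that ubiquitinates pathway components, was called lower at adjusted p = 0.0202 (log2 -0.17), with 0.0883 without KO library 1 and 0.0638 without WT library 3. Tnfaip2 was called higher at adjusted p = 0.0328 (log2 0.16), with 0.0594 without KO library 1, 0.145 without KO library 3, 0.126 without WT library 2 and 0.0929 without WT library 3. The deubiquitinase gene Tnfaip3 (A20) missed the threshold at 0.0693 (log2 -0.17). It passed without WT library 1 (adjusted p = 0.0088), by DESeq2 (0.0408), with the replicate block (0.0142) and without the filter on low counts (0.0359). In a single fit of all 18 primary libraries Csf3, Ccl20, Tnfaip2 and Birc3 missed the threshold as well, at adjusted p = 0.152, 0.0652, 0.488 and 0.21.

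Other genes of the pathway, from lists written beside the members, are given against the same background of 27% higher and 26.3% lower in total RNA. Of 31 upstream signalling genes (receptors, adaptors, IKK and its regulators), 5 were higher and 12 lower. The bacterial flagellin receptor Tlr5 had 1.16, 2.09 and 1.53 CPM in KO and 0.101, 0.201 and 0.105 CPM in WT (log2 fold change 3.58, SE 0.36, adjusted p = 6.27e-06), and the kinase gene Map3k8 was higher (log2 0.57). Of 17 inhibitors and feedback genes, 2 were higher and 7 lower, among them Tnip1 (log2 -0.64) and Socs3 (log2 -0.70). Other NFkB targets counted 5 higher and 9 lower of 18 tested, with the adhesion molecule Vcam1 lower (log2 -2.06) and Sele higher at only 35, 44 and 37 counts in KO and 9, 10 and 9 counts in WT.

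Further cytokines and chemokines outside the members were called higher in 4 and lower in 10 of 22 tested, with a median log2 fold change of -0.47. Il34, another ligand of the CSF1 receptor, had 0.1196, 0.254 and 0.0531 CPM in KO and 2.16, 1.74 and 2.28 CPM in WT (log2 fold change -3.82, SE 0.38, adjusted p = 6.09e-06). Cxcl14 had 2, 2 and 2 counts in KO and 28, 30 and 30 counts in WT. Receptors of the member cytokines were higher in 4 and lower in 6 of 16, with Slc22a17, the lipocalin-2 receptor, at log2 1.90 and Lifr at 0, 8 and 0 counts in KO and 13, 12 and 16 counts in WT. Of 14 factors that bind or degrade cytokine mRNAs, 4 were higher and 3 lower, the AU-rich binding factors Zfp36l2 (log2 0.76) and Hnrnpd (log2 0.44) among the higher ones.

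Markers of other cells moved at low levels between the genotypes, and their part in the members' changes was not tested. Fibroblast markers were higher in 1 and lower in 2 of 5 tested and summed to 5.49 to 6.87 CPM in KO and 5.18 to 5.54 CPM in WT. Fbln1 was the higher one (log2 1.39), and Postn had 0, 1 and 0 counts in KO and 22, 26 and 31 counts in WT. Esam was higher among 2 endothelial markers tested (log2 1.65), with sums of 4.70 to 6.23 CPM in KO and 1.70 to 2.57 CPM in WT. Urothelial markers were higher in 12 and lower in 5 of 17. The uroplakins Upk3a (log2 2.36) and Upk3b (log2 3.22) rose most, and Krt20 (log2 -2.10) and Epcam (log2 -1.63) fell most.

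In the polysome fraction Csf2, Ccl2, Ccl7 and Il23a were again the lowest in KO, and Ccr2 and Cxcl15 the highest. Of 35 members tested, 7 were called higher and 14 lower, against 14.9% and 13.8% of 13066 genes. Groups did not overlap for 8 members above and 14 below, against 19.7% and 23.5% of all genes, and the median log2 fold change was -0.25. Csf2 had 2.02, 2.18 and 1.96 CPM in KO polysomes and 20.6, 31.3 and 32.4 CPM in WT polysomes (log2 fold change -3.74, SE 0.19, adjusted p = 4.47e-10). Ccl2 had 3.26, 3.58 and 3.13 CPM in KO and 35.8, 34.7 and 39.7 CPM in WT (log2 fold change -3.43, SE 0.15, adjusted p = 1.5e-10). KO and WT libraries were far apart for both. Ccr2 had 30.7, 31.4 and 30.4 CPM in KO and 3.98, 4.05 and 4.45 CPM in WT (log2 fold change 2.92, SE 0.14, adjusted p = 3.85e-10).

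Genes called higher in KO polysomes and not in total RNA were Cxcl10 and Lcn2, both at low levels. The interferon-induced chemokine Cxcl10 had 1.15, 0.807 and 1.29 CPM in KO and 0.708, 0.518 and 0.451 CPM in WT (log2 fold change 0.97, SE 0.32, adjusted p = 0.0325). Its adjusted p was 0.0975 without KO library 1, 0.0938 without KO library 3, 0.0962 without WT library 2 and 0.119 without WT library 3, and 0.158 in the fit of all 18 libraries. Lcn2, an iron-sequestering antibacterial protein, had 21, 34 and 30 counts in KO and 5, 14 and 6 counts in WT, with an adjusted p of 0.0204. That p was 0.0789 without KO library 2, 0.0535 without KO library 3, 0.0881 without WT library 1 and 0.0704 without WT library 3, and 0.193 in the fit of all 18. Csf3 and Cxcl16 were called lower on calls that single libraries ended. The adjusted p of Csf3 was 0.0224 with all libraries, 0.0558 without KO library 1, 0.0528 without KO library 3, 0.059 without WT library 2 and 0.16 without WT library 3. That of Cxcl16 was 0.0391 with all libraries, 0.143 without KO library 1, 0.162 without KO library 2, 0.123 without WT library 2 and 0.172 without WT library 3. Ccl20, called higher at 0.0079, had an adjusted p of 0.0775 in the fit of all 18.

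None of the 5 Rel subunits passed in polysomes, where Nfkb2 had log2 -0.10 (SE 0.15) and Relb -0.13 (SE 0.14). Libraries of the same number deviated together in polysomes, and with the replicate block 9 members were higher and 15 lower. The block added Nfkbiz (higher, adjusted p = 0.0204), Tnfaip2 (higher, 0.0173) and Birc3 (lower, 0.0484). Without the block their adjusted p was 0.0569, 0.0886 and 0.137. Tnfaip2 also passed without WT library 1 (adjusted p = 0.0245). In the fit of all 18 libraries Nfkbiz and Birc3 passed too (0.0189 and 0.0441), and Nfkbiz passed by DESeq2 (0.031).

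In the subpolysome fraction 6 of 33 members tested were higher and 12 lower, against 11% and 11% of 12645 genes. Groups did not overlap for 6 above and 13 below, against 17.6% and 19.1%. Csf2 had 18.2, 19.3 and 14.2 CPM in KO and 125, 171 and 217 CPM in WT subpolysomes (log2 fold change -3.29, SE 0.16, adjusted p = 1.55e-13), and Ccl2 had 2.81, 3.64 and 3.61 CPM in KO and 31.7, 27.2 and 43.03 CPM in WT (log2 fold change -3.33, SE 0.20, adjusted p = 4.07e-12). The 6 higher genes were Il18, Il33, Ccl20, Ccr2, Cxcl15 and Nfkbiz. Some smaller effects lost their call when 1 library was left out. The adjusted p of Csf1 was 0.0831 without KO library 2, 0.0599 without WT library 1 and 0.115 without WT library 3, and that of Cxcl16 was 0.0657 without KO library 1, 0.0774 without KO library 3, 0.0627 without WT library 2 and 0.127 without WT library 3. For Nfkbie it was 0.0801 without KO library 1 and 0.0708 without WT library 2. Among the higher genes, the adjusted p of Ccl20 was 0.118 without KO library 1, 0.0572 without KO library 3, 0.128 without WT library 2 and 0.12 without WT library 3, and 0.0622 with library totals in place of TMM. For Nfkbiz it was 0.135 without WT library 2, and 0.0674 with library totals.

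Across the 3 kinds of RNA, each of which has its own libraries, 11 members were called lower in all and 5 higher in all, and no member was called in opposite directions. Whether the 3 kinds of RNA came from the same cultures is not labelled, so the 3 calls of a member may not be independent. Of 12431 genes tested in all 3, 7.82% were lower in all, 8.75% higher in all and 0.0402% called in opposite directions, and 33 members were tested in all 3. The 11 were Csf1, Csf2, Lif, Il1a, Il23a, Tnf, Ccl2, Ccl7, Cxcl16, Nfkbie and Icam1. The 5 were Il18, Il33, Ccl20, Ccr2 and Cxcl15. Another 3 (Csf3, Tslp and Cxcl2) were lower in total RNA and polysomes only by the threshold, Relb in total RNA and subpolysomes, and Nfkb2 and Birc3 in total RNA. Nfkbiz was higher in total RNA and subpolysomes, Tnfaip2 in total RNA and Cxcl10 in polysomes. The 8 members tested in all 3 and called in none were Il1rn, Cxcl1, Cxcl3, Nfkb1, Rel, Rela, Nfkbia and Tnfaip3.

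Polysome and subpolysome levels were compared within each genotype. In both, mRNAs of Nfkbiz, Nfkbia, Csf2, Csf3, Cxcl1 and Il1a were lower in polysomes than in subpolysomes relative to other mRNAs. Those of Tslp, Il33, Il18, Il1rn and 3 of 5 Rel subunits were higher in polysomes. Of 35 members, 12 were higher and 12 lower in polysomes in KO (31.7% and 29.9% of 13392 genes) and 12 and 12 in WT (32.8% and 30.9%), so the shares are near the background. The call was the same in both genotypes for 11 higher and 12 lower members. Cxcl15 passed in KO and Cxcl5 in WT alone, and the difference between genotypes passed for neither.

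Nfkbiz had 6.17, 5.96 and 6.06 CPM in KO polysomes and 57.1, 57.7 and 59.5 CPM in KO subpolysomes (log2 fold change -3.28, SE 0.14, adjusted p = 6.52e-14). In WT it had 4.89, 4.04 and 4.74 CPM in polysomes and 48.97, 37.9 and 44.2 CPM in subpolysomes (log2 fold change -3.31, SE 0.14, adjusted p = 5.01e-14). The fractions were 9.74-fold apart in KO and 9.94-fold in WT. Nfkbia had log2 -1.75 in KO and -1.73 in WT, Cxcl1 -2.88 and -2.49, and Csf2 -3.09 and -2.66. Csf3 had 0.773, 0.916 and 0.716 CPM in KO polysomes and 5.22, 5.66 and 3.61 CPM in KO subpolysomes (log2 fold change -2.62, SE 0.34, adjusted p = 9.49e-07). Of 11 members lower in polysomes in both genotypes with a searched 3′ region, 5 held the AU-rich nonamer shown above, and of 10 higher ones 1 did, Il23a.

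**Figure D3:**
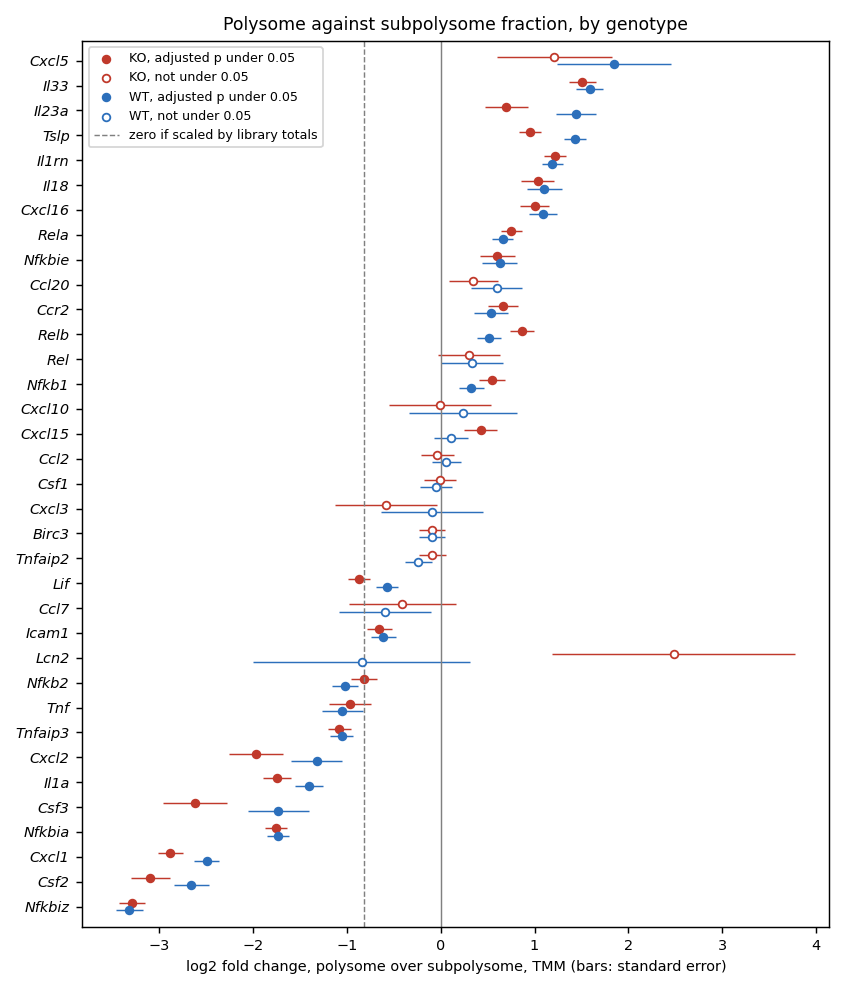
Log2 ratio of polysome to subpolysome level (TMM-scaled) for each member in KO and WT, with bars of 1 standard error. Nfkbiz, Csf2 and Cxcl1 lie lowest and Il33 and Tslp among the highest in both genotypes; with library totals in place of TMM all values shift up by about 0.82, and Lif, Icam1 and, in KO, Nfkb2 come to lie above 0 without passing.

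On the polysome side, Il33 had 1222, 1307 and 951 CPM in KO polysomes and 419.9, 391 and 389 CPM in KO subpolysomes (log2 fold change 1.51, SE 0.14, adjusted p = 1.08e-08), and in WT the log2 ratio was 1.59. Tslp had a log2 ratio of 0.95 in KO and 1.43 in WT. Rela (0.75 in KO, 0.66 in WT), Relb (0.87, 0.51) and Nfkb1 (0.55, 0.33) were higher in polysomes, while Nfkb2 was lower (-0.82, -1.02). In KO, single libraries decided the calls of Il23a (adjusted p = 0.052 without KO subpolysome library 1), Nfkbie (0.0647 without KO subpolysome library 1) and Cxcl15 (0.0695 without KO polysome library 1, 0.107 without KO polysome library 3, 0.097 without KO subpolysome library 2 and 0.0746 without KO subpolysome library 3). In WT they decided those of Ccr2 (adjusted p = 0.0683 without WT subpolysome library 2), Cxcl5 (0.0707 without WT polysome library 3) and Nfkb1 (0.209 without WT polysome library 1 and 0.157 without WT subpolysome library 2), the last of which also missed it by DESeq2 (0.0522). Ccl20 missed it in WT at 0.0584 and passed with the replicate block (0.00569), without the filter (0.00785) and without WT subpolysome library 1 (0.000487).

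These ratios depend on the scaling. The 10 most abundant genes, many of them ribosomal protein and elongation factor genes in subpolysomes, held 6.05% of polysome counts and 19.1% of subpolysome counts, and TMM factors were 1.06 to 1.22 in polysomes and 0.604 to 0.712 in subpolysomes. With library totals and no TMM factors, the median over all genes of the log2 ratio was 0.90 in KO and 0.84 in WT, and 20 members were higher and 7 lower in KO and 19 and 6 in WT. Lower under both scalings and in both genotypes were Csf2, Csf3, Il1a, Cxcl1, Nfkbia and Nfkbiz. The sign turned, without passing, for Lif and Icam1 in both genotypes and for Nfkb2 in KO, whereas Tnf and Tnfaip3 kept a negative sign and lost the call in both, as Cxcl2 and Nfkb2 did in WT. Csf1, Ccl2, Ccl20, Rel, Tnfaip2 and Birc3 came to be called higher in both genotypes.

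Whether the genotype moved the ratio of polysome to subpolysome was tested as an interaction. No member of 35 was called, against 0.00747% of 13392 genes, and DESeq2 also called none. At an unadjusted p below 0.05 stood 3 members, against 5.66% of all genes. These were Tslp (log2 difference -0.48, SE 0.16), Il23a (-0.74, SE 0.31) and Cxcl1 (-0.39, SE 0.18). Csf2, with its large change in level, had -0.44 (SE 0.27). A p that misses the threshold does not show that the ratio was the same.

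Compared with primary total RNA, the cancer libraries had far less mRNA of Il33, Il18, Csf2, Ccr2 and Cxcl15 and more of Cxcl5, Ccl20 and Cxcl10. Ccl2 was called higher as well, but its cancer libraries labelled WT did not exceed the range of primary WT. Of 36 members tested, 7 were called higher and 19 lower, against 38.8% and 39% of 14305 genes, and the median log2 fold change was -0.85 over members and -0.025 over all genes. Groups did not overlap for 4 members above and 18 below, against 32.8% and 31.9%. Tissue and set of libraries cannot be told apart here. Rn45s, a ribosomal RNA gene, held 0.191% to 0.299% of counts in cancer libraries and 2.02% to 2.58% in primary total RNA. Levels of each cancer library follow.

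Among the cytokines, Il33 had 0.968 and 2.19 CPM in cancer libraries labelled KO, 30.4 and 1.78 CPM in those labelled WT, and at least 361 CPM in every primary total RNA library (log2 fold change -6.72, SE 0.82, adjusted p = 9.63e-05). Il18 had 1.02 and 0.3196 CPM in cancer libraries labelled KO and 0.367 and 0.661 CPM in those labelled WT, against 16.01, 15.2 and 16.2 CPM in primary KO and 8.19, 6.22 and 7.43 CPM in primary WT (log2 fold change -4.22, SE 0.36, adjusted p = 1.04e-05). No cancer library reached the primary range of either gene. Lower too were Il1a (log2 -3.00), Csf3 (-3.02), Il23a (-2.52), Lif (-2.18), Tslp (-2.13) and Tnf (-1.55). Csf2 had 2 counts in each of the 4 cancer libraries. Il6 had 150 and 0 counts in libraries labelled KO and 1 and 60 in those labelled WT, against at most 4 in primary total RNA libraries. Its call as higher (adjusted p = 0.0105) was lost, at 0.928 without cancer KO library 1 and 0.341 without cancer WT library 2.

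**Figure D4:**
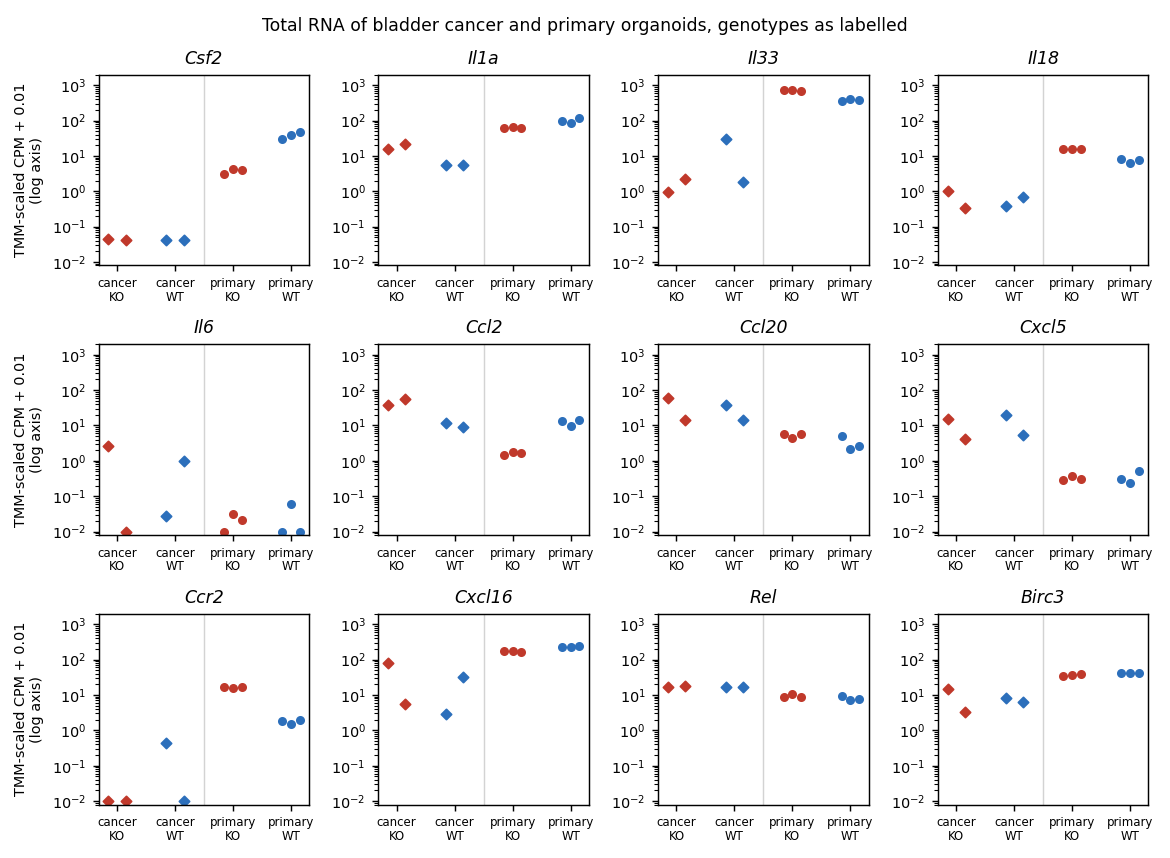
Level of 12 members in each total RNA library (TMM-scaled CPM plus 0.01, log axis), cancer libraries left of primary ones, with KO and WT as labelled. Il33, Il18 and Csf2 are lower in every cancer library, and Ccl20, Cxcl5 and Rel higher.

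Among the chemokines, Cxcl5, a neutrophil chemokine, had 14.9 and 4.06 CPM in cancer libraries labelled KO and 20.3 and 5.203 CPM in those labelled WT, against 0.283, 0.364 and 0.297 CPM in primary KO and 0.293, 0.227 and 0.502 CPM in primary WT (log2 fold change 5.04, SE 0.52, adjusted p = 3.58e-05). Ccl20 had 59.3 and 14.3 CPM in cancer libraries labelled KO and 38.5 and 14.6 CPM in those labelled WT (log2 fold change 2.88, SE 0.46, adjusted p = 0.000476), above all primary libraries. Cxcl10 was also higher (log2 2.23). Ccl2, at log2 2.27, had 38.04 and 57.7 CPM in cancer libraries labelled KO against 1.43, 1.72 and 1.69 CPM in primary KO, and 11.4 and 8.92 CPM in those labelled WT against 13.4, 9.54 and 14.5 CPM in primary WT. The libraries labelled KO thus carried the difference, and the test of it between genotypes is given below. Ccr2 had 0 and 0 counts in libraries labelled KO and 26 and 0 in those labelled WT, and Cxcl15 had 1 and 0 counts in those labelled KO and 4 and 1 in those labelled WT. With so few counts no fold is given. Cxcl16 was lower as well (log2 -2.89).

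Within the pathway, Rel had 16.3 and 18.5 CPM in cancer libraries labelled KO and 16.96 and 16.8 CPM in those labelled WT, against 8.96, 10.5 and 8.995 CPM in primary KO and 9.38, 6.99 and 7.48 CPM in primary WT (log2 fold change 0.96, SE 0.11, adjusted p = 6.78e-05). Nfkb2 was higher (log2 0.41), and Relb (log2 -0.91) and Rela (log2 -0.28) were lower. The inhibitors Nfkbia, Nfkbie and Tnfaip3 and the pathway gene Birc3 were called lower, with Nfkbia at log2 -0.86, Nfkbie at -1.74, Tnfaip3 at -0.93 and Birc3 at -2.29. Not called were Csf1, Il1rn, Ccl7, Cxcl1, Cxcl2, Cxcl3, Nfkb1, Nfkbiz, Tnfaip2 and Icam1, of which all but Ccl7, Nfkbiz and Icam1 passed when some 1 cancer library was left out. Lcn2, called lower, had 1 and 0 counts in cancer libraries labelled KO and 2 and 0 in those labelled WT, and it did not pass the filter on low counts when primary KO library 3 or primary WT library 3 was left out.

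Among the cancer libraries themselves, KO against WT as labelled gave no called member of 32, with 0% of 12681 genes called. At an unadjusted p below 0.05 stood 2 members, against 0.757% of all genes. DESeq2 called 2 members, Ccl2 and Il1a. Groups did not overlap for 5 members above and 1 below, against 10.1% and 10.5%. Ccl2 had 38.04 and 57.7 CPM in libraries labelled KO and 11.4 and 8.92 CPM in those labelled WT, and Il1a had 15.6 and 22.4 CPM in those labelled KO and 5.402 and 5.42 CPM in those labelled WT. Both libraries labelled KO exceeded both labelled WT for each gene. With 2 libraries a group and an Arid1a level that goes against the label in 1 of each, no direction is drawn for the genotype.

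The difference between the cancer and the primary KO effect was called for 4 members of 36, all positive, against 1.53% positive and 1.6% negative of 14305 genes. It was 5.14 log2 units for Ccl2 (SE 0.36, adjusted p = 0.00135), 2.38 for Il1a (SE 0.24, adjusted p = 0.0048), 3.27 for Il23a (SE 0.65, adjusted p = 0.0422) and 5.80 for Ccl7 (SE 1.21, adjusted p = 0.0467). Ccl7 had 0.574 and 2.62 CPM in libraries labelled KO and 0.533 and 0.0661 CPM in those labelled WT. Il23a had 1.09 and 1.13 CPM in libraries labelled KO and 0.2501 and 0.875 CPM in those labelled WT. Leaving out single libraries ended the calls of Il23a (adjusted p = 0.0512 without cancer KO library 2, 0.119 without primary KO library 1, 0.0806 without primary KO library 2, 0.128 without primary KO library 3, 0.0663 without primary WT library 1, 0.118 without primary WT library 2 and 0.126 without primary WT library 3) and Ccl7 (0.0622 without cancer KO library 2, 0.129 without primary KO library 1, 0.102 without primary KO library 2, 0.133 without primary KO library 3, 0.0904 without primary WT library 1, 0.118 without primary WT library 2 and 0.127 without primary WT library 3). Without the filter on low counts the adjusted p of Ccl7 was 0.0525. With 1 library left out at a time, 2 to 7 members had a positive and 0 to 6 a negative difference that passed.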

How the data were processed

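RNA-seq counts of 18 primary bladder organoid libraries and 4 cancer libraries were used. The deposited values are raw read counts per gene symbol, 1 library per table. HTSeq and mm10 are named for all libraries and Bowtie for the 18 primary ones, per the submitters' processing notes. Not given in the sources used here are tool versions, annotation, strand handling, the treatment of reads matching several places and the cancer aligner. Bowtie alone does not place reads across exon junctions. No row lacked a gene name. The total count per library ranged from 39245248 to 76594655.

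Groups and replicate numbers came from the labels. Libraries of a group differed by 11.9 to 247 times the degrees of freedom of a chi-square test, so none was counted as a duplicate. Fits used glmQLFit and glmQLFTest of edgeR 4.0.16 (R 4.3.3) after TMM scaling and filterByExpr with a minimum count of 10. P-values were adjusted by Benjamini-Hochberg across every gene tested, at a threshold of 0.05. KO and WT were compared within total RNA, polysomes and subpolysomes on 6 libraries each, fractions and their interaction with genotype on 12 libraries, and cancer against primary with its interaction on 10 libraries. The cancer libraries were also fitted alone. The standard error of a log2 fold change is its absolute value divided by the square root of F. The pipeline was tested on simulated data. Printed levels are CPM scaled by TMM factors computed once over 22 libraries, so their ratios can differ slightly from fitted folds.

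Alternatives were DESeq2 1.42.0, DESeq2 size factors, no filter, the replicate block, a fit of all 18 libraries, leaving out each library and, chosen after seeing the data, library totals and a crossed pairing of the cancer libraries. The main tests used no pairing, and the replicate block was an alternative only. Replicate numbers may pair libraries in polysomes, where the deviations of same-numbered KO and WT libraries correlated at 0.188, 0.200 and 0.257 across genes. The labels do not say what a number marks. In each comparison those of the 37 members that passed the filter are counted, and values are printed for some of them. From each further list the 2 genes with the largest absolute log2 fold change among those called in total RNA were chosen to be named. Some further genes of these lists, such as Krt20 and Epcam, are named outside that rule. Members and lists were chosen with earlier results of these data known. Counts of lists are descriptions, with no set test.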

Additional observations from a re-analysis of the deposited data

Results flagged for a closer look

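The KO effect of 4 members differed between cancer and primary total RNA by the interaction test, edgeR's quasi-likelihood F test adjusted over 14305 genes. For Ccl2 the log2 KO effect in cancer minus that in primary organoids was 5.14 (adjusted p = 0.00135), with 2.24 in the cancer libraries and -2.92 in primary ones. For its neighbour Ccl7 it was 5.80 (adjusted p = 0.0467), with 2.41 and -3.41. For Il1a it was 2.38 (adjusted p = 0.0048), with 1.82 and -0.59, and for Il23a 3.27 (adjusted p = 0.0422), with 0.99 and -2.30. All 4 genes were lower in every primary KO library and higher in both cancer libraries labelled KO. The cancer side rests on 2 libraries a group, with an Arid1a level that goes against the label in 1 of each, and the adjusted p of Ccl7 and Il23a missed the threshold when the second cancer library labelled KO or any 1 primary library was left out. Without the filter on low counts Ccl7 missed it too (adjusted p = 0.0525).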

How the results depend on the processing

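Among single members, 4261 values under the alternatives kept their side of the threshold, 94 lost the call and 68 gained one. Another 14 changed sign with a call in the main or the alternative fit. A value called in neither fit was counted as kept whatever its sign. Counts were within 1.5 times the main one in 344 cases and outside it in 40. The fit of all 18 primary libraries called 3784 genes in total RNA, against 7025 from its own 6 libraries. Leaving out 1 library left 4 to 8 members higher in total RNA, and 0 to 4 genes of the whole table in the interaction of genotype and fraction. That interaction called 12 genes by DESeq2, 29 without the filter, 13 with the replicate block and 6 in the fit of all 18, none of them a member.

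With library totals, which shift polysome against subpolysome by about 0.82 (log2), 20 members were higher and 7 lower in KO, and 19 and 6 in WT. The sign turned for Csf1 (0.89 in KO, 0.78 in WT), Lif (0.019, 0.26), Tnfaip2 (0.80, 0.58), Birc3 (0.80, 0.74), Icam1 (0.23, 0.21) and, in KO, Ccl2 (0.85) and Nfkb2 (0.065). The alternative's own shift moves the ratios of a genotype about alike, with a median over all genes of 0.90 in KO and 0.84 in WT.

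DESeq2 called 2 members and 10 genes in the cancer libraries, and 7 members higher, 2 lower and 1747 genes in the interaction with cancer. Leaving out 1 library, that interaction gave 2 to 7 members higher, 0 to 6 lower and 72 to 2376 genes. The difference of Tnfaip2 ran from -2.97 without the first cancer library labelled KO to 0.97 without the second, and that of Birc3 from -0.97 to 1.22. The cause was not tested.

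With the replicate block, 7 members were higher and 18 lower in total RNA (6937 genes), 6 and 12 in subpolysomes (3239 genes), 12 and 12 between fractions in KO, 13 and 12 in WT, and 0 in cancer. Same-numbered KO and WT libraries correlated at 0.149, 0.038 and -0.068 in total RNA, and 0.028, 0.032 and 0.068 in subpolysomes. Across fractions this was 0.078, 0.066 and 0.138 in KO and 0.198, 0.067 and 0.098 in WT. Libraries of different numbers reached at most 0.035 across fractions in KO and 0.017 in WT. Fractions of the same number may thus be paired, and the main fits of fractions did not pair them. In cancer same-numbered libraries correlated at -0.43 and those of different numbers at 0.43. With 2 libraries a group these are 1 value with either sign. Library 1 labelled KO thus deviated with library 2 labelled WT. The crossed pairing of the cancer libraries also gave 0 calls. Low counts limit Il6, Lcn2, Cxcl3, Cxcl5, Cxcl10 and Ccl7, and Il1b passed the filter in none of the main comparisons.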

Other observations

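Receptors of the interleukin-1 family were read beside Il18 and Il33 after their values were seen. In KO total RNA, where Il18 and Il33 were higher, the receptor chains of interleukin-18 were lower. Il18rap had 30.95, 28.3 and 27.5 CPM in KO and 103, 119 and 106 CPM in WT (log2 fold change -1.89, SE 0.063, adjusted p = 1.5e-09), with no overlap between groups, and Il18r1 was lower as well (log2 fold change -0.73, SE 0.087, adjusted p = 2.82e-05). Il1rl1, the receptor of interleukin-33, had 0.304, 0.618 and 0.467 CPM in KO and 0.833, 1.04 and 1.097 CPM in WT (log2 fold change -1.07, SE 0.30, adjusted p = 0.0101). Il1rap, the chain shared by interleukin-1 and interleukin-33 receptors, had 3.05, 3.63 and 3.45 CPM in KO and 9.898, 10.5 and 9.69 CPM in WT (log2 fold change -1.54, SE 0.10, adjusted p = 2.11e-07). Of the other receptors of the family in the list, Il1r1 (log2 fold change 0.032) and Il1r2 (log2 fold change 1.11, adjusted p = 0.0561) were not called. Cxcr2, the receptor of the neutrophil chemokines, went the other way (log2 fold change 1.81, SE 0.24, adjusted p = 6.04e-05).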
